A study of Rattus norvegicus with 8 samples.

Results

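The Hedgehog pathway genes described here are 9 genes chosen by name, namely the ligands Shh and Ihh, the receptor Ptch1, the signal transducer Smo, the cytoplasmic inhibitor Sufu, the transcription factors Gli1, Gli2 and Gli3, and the decoy receptor Hhip. Of these, 8 had an array row assigned to a single gene symbol, among 22093 genes with such a row. Ptch1 was not analysed here. They were measured in whole lungs of 8 newborn rat pups, 1 Affymetrix array per lung, 4 from vitamin D deficient dams and 4 from vitamin D adequate dams. Deficient dams ate an AIN93G diet with 0 IU/kg vitamin D, and adequate dams the same diet with 1000 IU/kg. Calcium was 0.5% and phosphorus 0.4% of either diet, and all dams were kept without ultraviolet light at Denver altitude. Females whose serum 25-OHD, the circulating form of vitamin D, was under 10 ng/ml at 8 weeks of age were mated with vitamin D-replete males, and litters were born at term. Pup age is day 0 in the sample labels and day of life 1 in the growth protocol. The labels do not say which litters the pups came from, so the p-values below measure the spread between these lungs. In a whole lung, fewer cells of a type and less RNA per cell cannot be told apart.

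Hedgehog ligands are secreted proteins that bind Ptch1 and thereby relieve its block on Smo. Active Smo, working at the primary cilium, frees the GLI factors from Sufu and from processing to repressor forms. Gli1, Ptch1 and Hhip are themselves transcribed in response to the signal, so their RNA is commonly read as a measure of pathway output. In the developing mouse lung, Shh is made by the epithelium and acts mainly on the surrounding mesenchyme, where it is needed for branching and for airway smooth muscle.

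Promoter windows of 250 bases upstream of the annotated start were found in RefSeq (rat assembly GRCr8) for 5 of the 8 members with a row. The windows of Gli2 (chr13:32716419-32716668, minus strand) and Sufu (chr1:255198939-255199188, plus strand) are shown because these members had the lowest adjusted p-values of the set. That of Gli3 (chr17:54405199-54405448, minus strand) is shown because it held the only match to the core GLI motif. Capitals mark GC boxes in Gli2 and the core GLI motif in Gli3.
Gli2: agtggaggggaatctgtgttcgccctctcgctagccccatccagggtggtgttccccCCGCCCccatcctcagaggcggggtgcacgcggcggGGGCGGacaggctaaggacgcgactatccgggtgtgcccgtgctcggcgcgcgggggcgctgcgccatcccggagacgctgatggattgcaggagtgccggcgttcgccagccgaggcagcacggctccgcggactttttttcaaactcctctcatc
Sufu: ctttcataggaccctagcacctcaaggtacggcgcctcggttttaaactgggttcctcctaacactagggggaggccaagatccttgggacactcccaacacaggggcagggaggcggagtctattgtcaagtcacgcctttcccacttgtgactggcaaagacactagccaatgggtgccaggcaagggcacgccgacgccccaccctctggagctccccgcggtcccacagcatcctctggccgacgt
Gli3: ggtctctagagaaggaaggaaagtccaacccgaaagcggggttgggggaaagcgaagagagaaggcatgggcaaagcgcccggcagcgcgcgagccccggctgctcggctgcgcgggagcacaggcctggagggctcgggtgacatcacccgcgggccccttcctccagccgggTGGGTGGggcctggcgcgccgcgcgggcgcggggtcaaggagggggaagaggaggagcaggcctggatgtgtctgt

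The full GLI motif searched, GACCACCCA on either strand, occurred in none of the 5 member windows and in 0.34% of 33469 windows of the same length. Its core, CCACCCA, which lies within the full motif, occurred in 7.93% of all windows and once among the members. That match lies 76 bases before the start of Gli3, as the reverse complement TGGGTGG in the sequence printed above. The GC box GGGCGG occurred in 30.5% of all windows and at 2 positions in Gli2. The member windows held 60.4% to 70.4% G and C, against a median of 51.2% over all windows.

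Array values are log2 expression, and each row's scale depends on its own probes, so levels are compared between lungs and not between genes. Array medians lay between 5.58 and 5.65 in deficient lungs and between 5.50 and 5.59 in adequate lungs. The surfactant gene Sftpc, which defines alveolar type 2 cells, read 19.83 to 19.88 in deficient and 19.84 to 19.90 in adequate lungs, close to the highest reading of any row. Sftpb, a second surfactant gene, read 18.63 to 18.67 in deficient and 18.94 to 19.08 in adequate lungs, without overlap (-0.38, adjusted p = 0.00715). The groups are those of the array titles. In the authors' deposited table of called transcripts, each of the 8 sample columns holds the values of the same-numbered array of the other titled group, to within 5e-05. Every direction below follows the array titles and runs opposite to that table, which lists Gli2 at a signed fold of 1.582 and Sufu at 1.297 as higher in its deficient columns. Which naming is right cannot be settled from these files. The 4 Y-linked rows averaged 5.34 to 5.44 in deficient lungs, against 11.78, 11.70, 7.40 and 6.43 in adequate lungs 1 to 4. Every adequate lung thus read above every deficient lung on this mean, with adequate lungs 1 and 2 far above the other 6. The labels do not give pup sex, so a difference in sex between the groups cannot be told apart from diet. The members and the gene lists are given below with and without adequate lungs 1 and 2.

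Of the 9 members, 7 passed the level filter and were tested, and 3 fell in deficient lungs at an adjusted p under 0.05, namely Shh, Sufu and Gli2. None rose, and Smo, Gli1, Gli3 and Hhip did not pass. Over all 15465 genes tested, 21.9% passed in either direction, 13.7% lower in deficient lungs and 8.24% higher. The same 3 members were the ones whose deficient and adequate values did not overlap, with all deficient values lower, as held for 16.7% of all genes, while for 11.3% all deficient values were higher. The median difference over the 7 members was -0.31 (log2, deficient minus adequate), beside -0.02 over all genes tested. Of all genes that passed, 62.4% were lower in deficient lungs. That share was 46.4% after a second quantile normalization and 32.9% with arrays centred on their medians, which moved the median difference of all genes to 0.09. Under both scalings Sufu and Gli2 passed, lower in deficient lungs, and Shh did not.

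**Figure D1:**
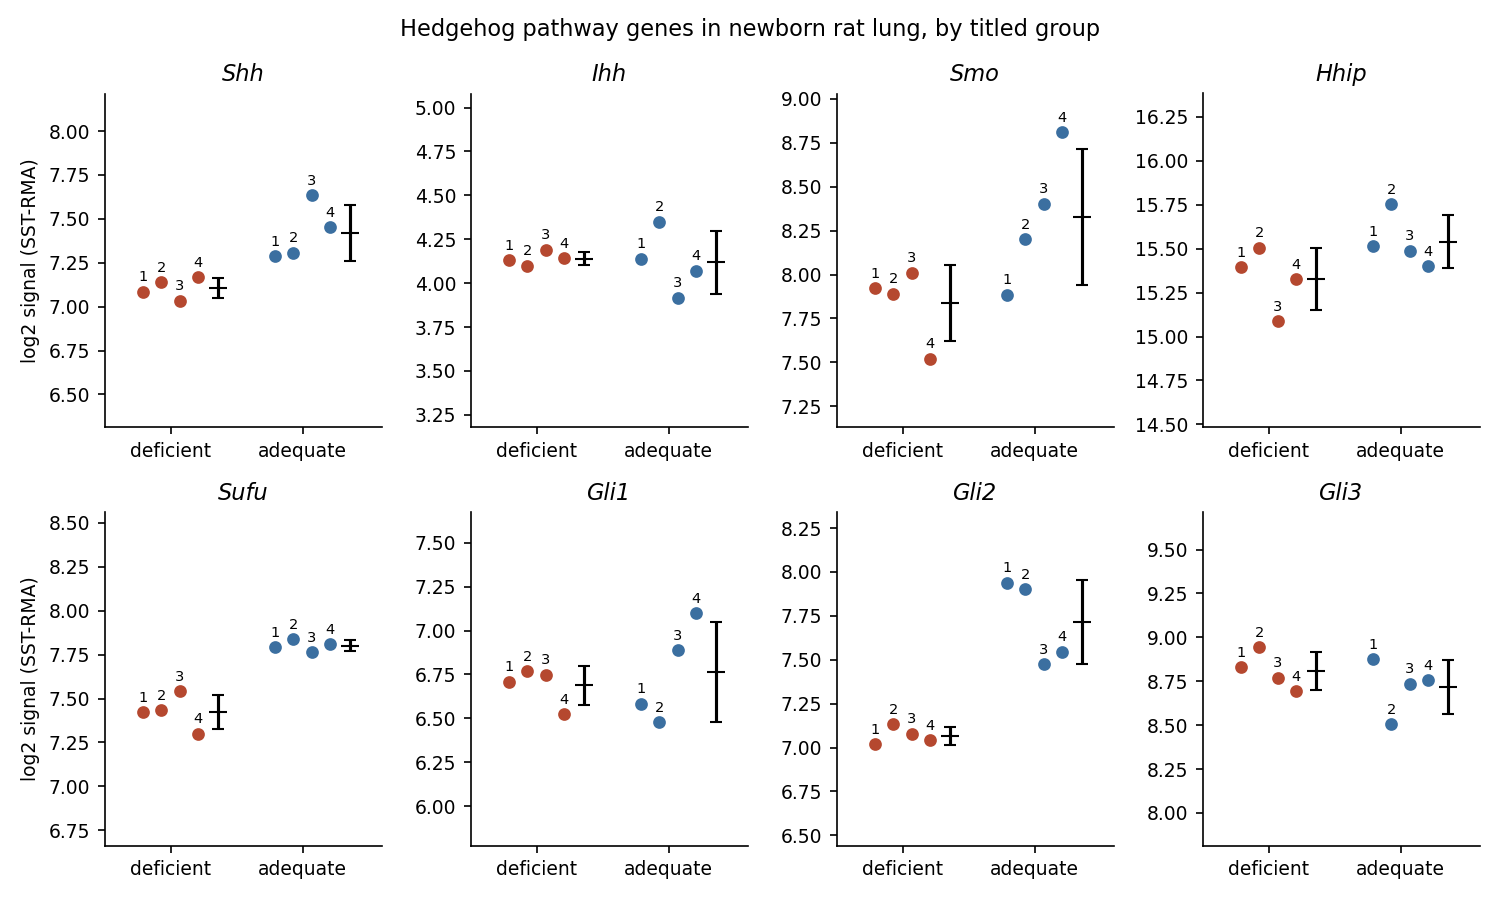
Log2 expression (vertical axes, a separate scale for each gene) of the 8 measured Hedgehog genes, deficient lungs left and adequate lungs right, 1 numbered point per lung with the group mean and SD. Shh, Sufu and Gli2 have no overlap between groups, and the 4 deficient values of Gli2 lie between 7.02 and 7.13.

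Shh, the main Hedgehog ligand of the lung epithelium, read 7.09, 7.14, 7.03 and 7.17 in deficient lungs 1 to 4, against 7.29, 7.31, 7.64 and 7.45 in adequate lungs. Every deficient value lay below every adequate one, and adequate lungs 3 and 4 were the highest. The mean was 7.11 ± 0.06 in deficient and 7.42 ± 0.16 in adequate lungs (SD, n = 4 each). The difference of -0.31 (SE 0.09, 95% interval -0.52 to -0.11) corresponds to a 1.24-fold lower level, with an adjusted p of 0.0363. The exact two-sided permutation p was 0.0286, the smallest that 70 splits of 8 arrays can give. The adjusted p lay between 0.0676 and 0.0902 without any 1 of deficient lungs 1, 2 and 3 or adequate lungs 3 and 4, with differences of -0.33 to -0.24 in those fits. Shh did not pass without adequate lungs 3 and 4 together (-0.19, adjusted p = 0.147) and passed without adequate lungs 1 and 2 (-0.44, adjusted p = 0.0178). The median of the negative control rows ranged over 6.83 to 7.22 between arrays. That is above the array medians of 5.50 to 5.65, so the typical row also read below it. The antigenomic background rows, a second set of controls, averaged 3.71 to 3.92. Shh exceeded the negative control median on 3 of 4 deficient and 4 of 4 adequate arrays, so it was read close to those probes.

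Ihh, the ligand known for cartilage and bone growth, read 4.13, 4.10, 4.19 and 4.14 in deficient lungs, against 4.14, 4.35, 3.92 and 4.07 in adequate lungs. It lay below the negative control median on all 8 arrays and below the level filter, and the groups overlapped. Without the filter its difference was 0.02 (SE 0.08, adjusted p = 0.882). Among genes that acylate, release or carry the ligands, none of the 5 tested of 9 listed passed, and their median difference was -0.04. Disp1, which releases the lipid-bound ligand from the cell surface, differed by -0.24 (adjusted p = 0.0658), and Dhh, the third mammalian ligand, by 0.14 (adjusted p = 0.122).

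Smo, the membrane protein that carries the signal inward, read 7.92, 7.89, 8.01 and 7.52 in deficient lungs, against 7.89, 8.20, 8.40 and 8.81 in adequate lungs. Deficient lung 4 was the lowest and adequate lung 4 the highest, and adequate lung 1 lay within the deficient range. The mean was 7.84 ± 0.22 in deficient and 8.33 ± 0.39 in adequate lungs (SD, n = 4 each), a difference of -0.49 (SE 0.19, 95% interval -0.91 to -0.07). This did not pass over all genes (adjusted p = 0.0865, exact permutation p = 0.114). Smo passed without adequate lung 1 (-0.64, adjusted p = 0.0328) and without adequate lungs 1 and 2 (-0.77, adjusted p = 0.0198). Without adequate lungs 3 and 4 its difference was -0.21 (adjusted p = 0.384).

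Of 6 tested genes, of 8 listed, that present Hedgehog ligand at the cell surface, 1 fell and none rose, with a median difference of -0.45. That is 16.7% of the list, beside 13.7% of all genes lower and 21.9% in either direction. Cdon, a co-receptor that binds the ligand together with Ptch1, read 8.96, 8.90, 8.77 and 8.67 in deficient lungs, against 9.46, 9.48, 9.71 and 9.56 in adequate lungs. The groups did not overlap, and the difference was -0.73 (SE 0.10, adjusted p = 0.00168), a 1.65-fold lower level. It passed without adequate lungs 1 and 2 (-0.81, adjusted p = 0.00493) and without adequate lungs 3 and 4 (-0.64, adjusted p = 0.00985). Lrp2, a large endocytic receptor that binds Shh, differed by -0.48 (adjusted p = 0.0813), and the anchored co-receptor Gas1 by -0.47 (adjusted p = 0.0855). The related co-receptor Boc, named after its values were seen, read 10.13, 10.30, 10.48 and 10.17 in deficient lungs, against 11.01, 11.02, 10.33 and 10.39 in adequate lungs. Boc was high in adequate lungs 1 and 2, and Gas1, at 7.21 and 7.31 against 6.58 and 6.52, was high in adequate lungs 3 and 4. In the list, 3 fell without adequate lungs 1 and 2, 2 without adequate lung 2 alone, and 2 without adequate lungs 3 and 4. These were 50%, 33.3% and 33.3% of those tested, beside 17.3%, 17.1% and 18.3% of all genes.

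Hhip, a membrane protein that binds and sequesters the ligands and is itself induced by the signal, read 15.39, 15.51, 15.09 and 15.33 in deficient lungs, against 15.51, 15.75, 15.49 and 15.40 in adequate lungs. Deficient lung 3 was the lowest, and deficient lung 2 was the only deficient lung within the adequate range. The mean was 15.33 ± 0.18 in deficient and 15.54 ± 0.15 in adequate lungs (SD, n = 4 each). The difference of -0.21 (SE 0.12, 95% interval -0.47 to 0.05) did not pass (adjusted p = 0.222, exact permutation p = 0.114).

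Sufu, which holds the GLI proteins in the cytoplasm, read 7.42, 7.43, 7.54 and 7.30 in deficient lungs, against 7.79, 7.84, 7.76 and 7.81 in adequate lungs. The adequate lungs lay within 0.1 of each other and above every deficient lung. The mean was 7.42 ± 0.10 in deficient and 7.80 ± 0.03 in adequate lungs (SD, n = 4 each). The difference of -0.38 (SE 0.08, 95% interval -0.55 to -0.21) corresponds to a 1.30-fold lower level (adjusted p = 0.00886, exact permutation p = 0.0286). Sufu passed in all 8 fits that left out 1 lung (highest adjusted p 0.0286). It differed by -0.36 (adjusted p = 0.0372) without adequate lungs 1 and 2 and by -0.39 (adjusted p = 0.0288) without adequate lungs 3 and 4.

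Gli2, the GLI factor that acts mainly as the first activator of the response, read 7.02, 7.13, 7.08 and 7.04 in deficient lungs, against 7.94, 7.90, 7.48 and 7.55 in adequate lungs. All deficient values were lower, and adequate lungs 1 and 2 were the highest. The mean was 7.07 ± 0.05 in deficient and 7.72 ± 0.24 in adequate lungs (SD, n = 4 each). The difference of -0.65 (SE 0.11, 95% interval -0.90 to -0.39) corresponds to a 1.57-fold lower level (adjusted p = 0.00510, exact permutation p = 0.0286). It passed in all 8 fits that left out 1 lung (highest adjusted p 0.0172). The difference was -0.44 (adjusted p = 0.0114) without adequate lungs 1 and 2, and -0.85 (adjusted p = 0.00116) without adequate lungs 3 and 4. Gli2 exceeded the negative control median on 3 of 4 deficient and 4 of 4 adequate arrays.

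Gli1, an activator whose transcription is switched on by the signal, read 6.71, 6.77, 6.75 and 6.53 in deficient lungs, against 6.58, 6.48, 6.89 and 7.10 in adequate lungs. The deficient values lay among or above those of adequate lungs 1 and 2 and below those of adequate lungs 3 and 4. The difference was -0.08 (SE 0.13, 95% interval -0.37 to 0.22, adjusted p = 0.710, exact permutation p = 0.686). It turned to 0.16 (adjusted p = 0.289) without adequate lungs 3 and 4, to 0.04 (adjusted p = 0.847) without adequate lung 4 alone, and to 0.03 (adjusted p = 0.851) with arrays centred on their medians. Without adequate lungs 1 and 2 it was -0.31 (adjusted p = 0.0844). Gli1 exceeded the negative control median on none of 4 deficient and 1 of 4 adequate arrays. The array medians lay below that control median too. Gli1 lay above the antigenomic background mean of 3.71 to 3.92 on every array. Its reading near the negative control probes limits what these arrays can show of it.

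Gli3, the GLI factor that acts mainly as a repressor in the absence of signal, read 8.83, 8.94, 8.77 and 8.69 in deficient lungs, against 8.88, 8.51, 8.74 and 8.76 in adequate lungs. The groups overlapped, with a difference of 0.09 (SE 0.10, 95% interval -0.14 to 0.32, adjusted p = 0.545, exact permutation p = 0.4). A second, dimmer row of Gli3 read 6.53, 6.77, 6.95 and 6.57 in deficient lungs, against 6.55, 6.10, 6.30 and 6.24 in adequate lungs. In a fit of every named row, 16318 in all, this row was higher in deficient lungs by 0.41 (SE 0.12, adjusted p = 0.0379), with an exact permutation p of 0.0571. The dimmer row exceeded the negative control median on 1 of 4 deficient and none of 4 adequate arrays. The 2 rows thus disagree on whether Gli3 passed. The one that did read mostly below the negative control median, as the array medians did. It lay above the antigenomic background mean of 3.71 to 3.92 on every array.

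Within each lung, the difference between GLI genes was compared between groups for all 3 pairs. The change in Gli3 minus Gli2 was 0.74, with values of 1.65 to 1.81 in deficient lungs and 0.61 to 1.26 in adequate lungs, which did not overlap (exact permutation p = 0.0286, adjusted over the 3 pairs 0.0857). For Gli2 minus Gli1 the change was -0.57 (exact permutation p = 0.0571, adjusted 0.0857), and for Gli3 minus Gli1 it was 0.17 (exact permutation p = 0.314). None of the 3 passed after adjustment. The smallest p that 70 splits can give is 0.0286, so 1 pair alone at that value, as here, could not pass over 3 pairs. Failing to pass therefore says little about Gli3 minus Gli2.

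The Y-linked signal gave a further alternative, in which its mean over the 4 rows entered the fit as a covariate. It varied almost wholly among adequate lungs. With it, Sufu differed by -0.36 (adjusted p = 0.0691) and Gli2 by -0.33 (adjusted p = 0.0694), and neither passed. Shh (-0.50, adjusted p = 0.0226), Smo (-0.97, adjusted p = 0.0155) and Gli1 (-0.46, adjusted p = 0.0368) passed, all lower in deficient lungs. Gli3 (0.05, adjusted p = 0.868) and Hhip (-0.06, adjusted p = 0.866) did not. The number of members that passed was thus 3 with and without the covariate, with only Shh shared between the sets.

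**Figure D2:**
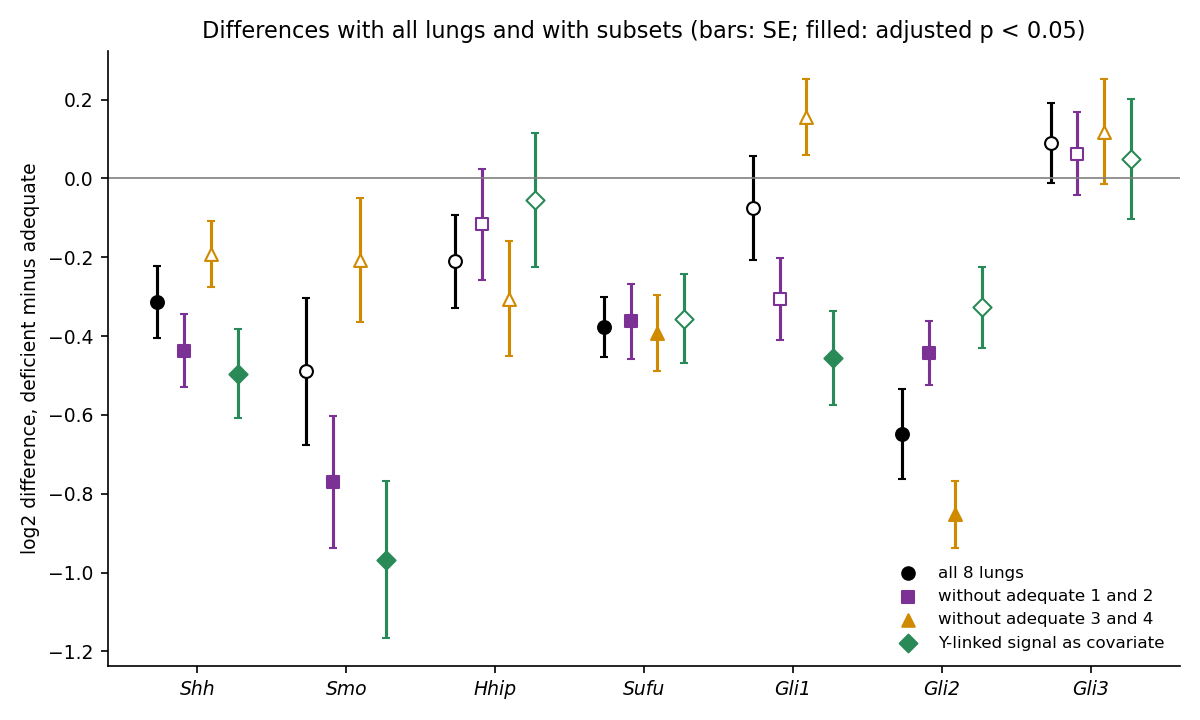
Log2 difference, deficient minus adequate (vertical axis, bars SE), of the 7 tested Hedgehog genes with all 8 lungs, without adequate lungs 1 and 2, without adequate lungs 3 and 4, and with the Y-linked covariate. Filled symbols mark an adjusted p under 0.05. Gli2 moves to -0.44 and -0.85 and Smo to -0.77 and -0.21, while Sufu stays at -0.36 and -0.39.

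**Figure D3:**
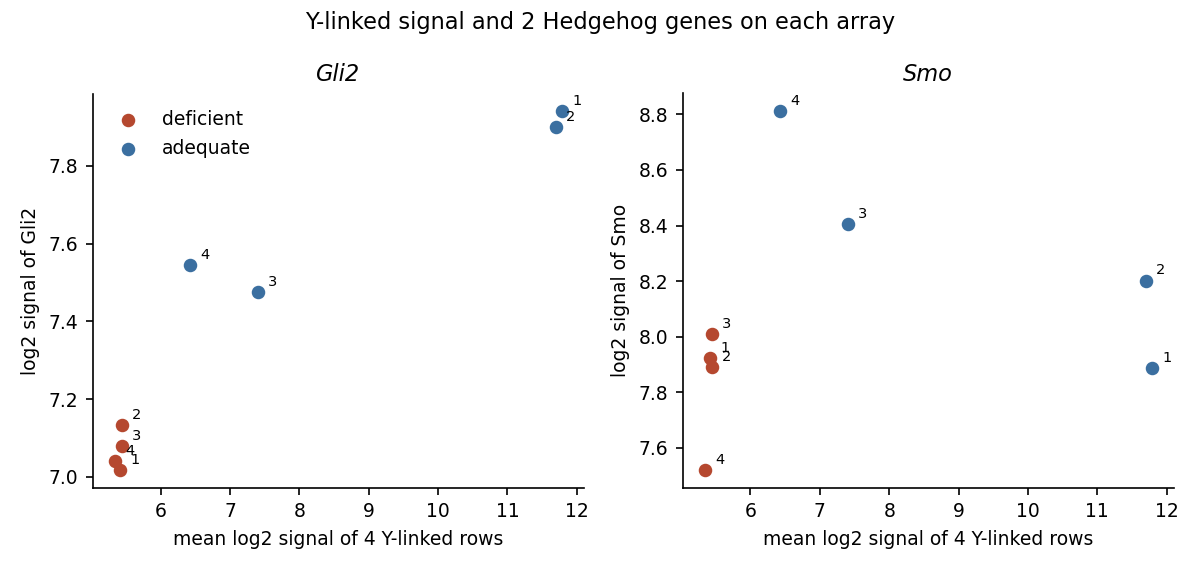
Log2 expression of Gli2 (left) and Smo (right) against the mean log2 signal of the 4 Y-linked rows, 1 point per lung, numbered by replicate and coloured by group. Adequate lungs 1 and 2 read 11.78 and 11.70, adequate lungs 3 and 4 read 7.40 and 6.43, and deficient lungs 5.34 to 5.44. Gli2 is highest where the Y-linked signal is highest, and Smo is highest in adequate lungs 3 and 4.

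Beyond the 9 members, 97 genes in 6 lists cover the rest of the pathway, of which 87 were tested. In deficient lungs 27 fell and 1 rose, so that 32.2% passed, beside 21.9% of all genes, and 31% were lower, beside 13.7%. The lists were chosen with earlier results of these data known, so these shares are a description and not independent support. The median difference of the 87 was -0.22. Without adequate lungs 1 and 2, 19 fell and 3 rose, and 16 of the 28 genes that passed with all lungs still passed. Without adequate lungs 3 and 4, 20 fell and none rose, and 18 of the 28 still passed. With the Y-linked covariate 14 fell and 4 rose, and 12 of the 28 still passed. In these 3 fits, in that order, 25.3%, 23% and 20.7% of the 87 passed, beside 17.3%, 18.3% and 13.2% of all genes. Of the 3390 genes that passed with all lungs, 2046, 2068 and 1424 still passed. None of the 28 changed sign in these 3 fits. Those genes were picked by passing on these same lungs, and of the 3390, 0, 0 and 3 changed sign in the same fits. Of the 28 that passed, 19 also passed in each of the 8 fits without 1 lung. The other 9 failed without at least 1 lung, at adjusted p-values of 0.0501 to 0.117. Arrb1 failed without adequate lung 4 and Gpr161 without deficient lung 2. Grk3 failed without any 1 of deficient lungs 1 and 2 and adequate lung 2, and Adcy5 without any 1 of deficient lungs 1 and 2 and adequate lungs 1 and 4. Csnk1e failed in 6 of the fits, and Dync2li1, Kif3a, Prkaca and Tbx4 in 7 each.

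**Figure D4:**
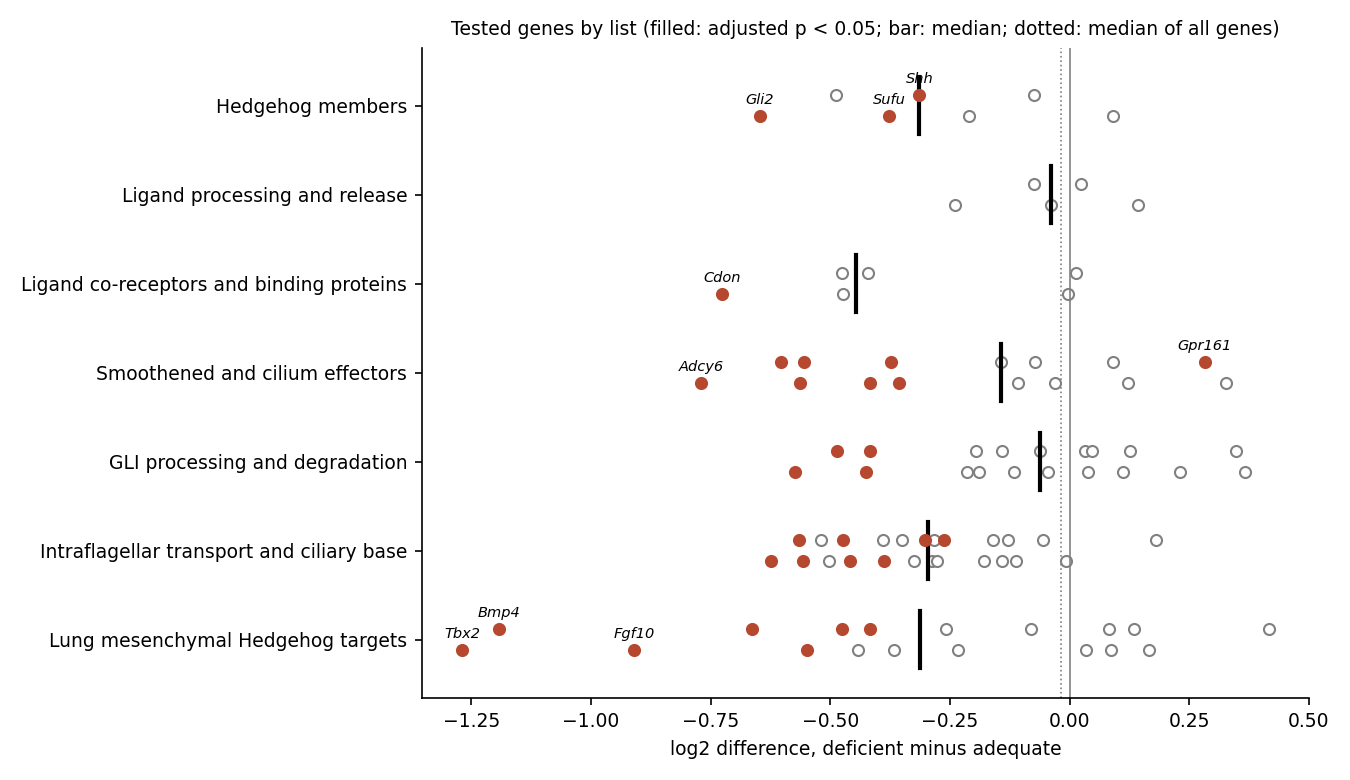
Log2 difference, deficient minus adequate, of each tested gene in the Hedgehog members and the 6 pathway lists, 1 point per gene, filled where the gene passed, with list medians as bars and the median of all genes dotted. The Hedgehog target list has the lowest value, -1.27, and Gpr161 at 0.28 is the only gene that passed above 0.

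Among 15 genes that act on Smo or set cyclic AMP and protein kinase A activity at the cilium, 7 fell and 1 rose. That is 53.3% of the list, beside 21.9% of all genes, with a median difference of -0.14. However, 1 fell and 1 rose both without adequate lungs 1 and 2 and with the Y-linked covariate. Without adequate lungs 3 and 4, 3 fell and none rose. In these 3 fits, in that order, 13.3%, 13.3% and 20% of the list passed, beside 17.3%, 13.2% and 18.3% of all genes. The list share was thus near or below that of all genes in each. In all, 5 passed without deficient lung 1, without deficient lung 2 or without adequate lung 4. That is 33.3% of the list, beside 14.1% to 15.9% of all genes. The kinase Grk2, which phosphorylates active Smo, differed by -0.56 (adjusted p = 0.0200) and its relative Grk3 by -0.37 (adjusted p = 0.0225). The arrestins Arrb1 (-0.56, adjusted p = 0.0249) and Arrb2 (-0.60, adjusted p = 0.00646), which bind phosphorylated Smo, also fell. So did the adenylyl cyclases Adcy5 (-0.36, adjusted p = 0.0316) and Adcy6 (-0.77, adjusted p = 0.0118) and the catalytic protein kinase A subunit Prkaca (-0.42, adjusted p = 0.0387). Gpr161, a ciliary receptor that raises cyclic AMP and restrains the pathway, read 6.39, 6.45, 6.31 and 6.27 in deficient lungs, against 6.10, 6.14, 5.98 and 6.07 in adequate lungs. It was higher in every deficient lung (0.28, adjusted p = 0.0183) and lay below the lowest negative control median, 6.83, on all arrays. Prkacb, another catalytic subunit, differed by 0.33 (adjusted p = 0.0733).

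Of 19 genes that phosphorylate, ubiquitinate or repress through GLI proteins, 4 fell and none rose, with a median difference of -0.06, and 21.1% passed, near the 21.9% of all genes. Without adequate lungs 1 and 2, 2 fell, and with the Y-linked covariate 1 fell. These were 10.5% and 5.26% of the list, beside 17.3% and 13.2% of all genes. With arrays centred on their medians 2 fell and 1 rose, and the list median was 0.05. Stk36, the mammalian relative of the fly kinase Fused, fell by 0.57 (adjusted p = 0.00230), and Sin3a, a corepressor scaffold, by 0.43 (adjusted p = 0.00840). Numb, an adaptor for the Itch ligase, fell by 0.42 (adjusted p = 0.0149), and the casein kinase Csnk1e by 0.49 (adjusted p = 0.0341). Btrc and Spop, which direct GLI proteins to ubiquitin ligases, differed by -0.22 (adjusted p = 0.0666) and -0.20 (adjusted p = 0.0935).

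Of 24 tested genes, of 26 listed, of intraflagellar transport and the ciliary base, 8 fell and none rose, with a median difference of -0.30. That is 33.3% of those tested, beside 13.7% of all genes lower and 21.9% in either direction. With the Y-linked covariate 5 fell, and without adequate lungs 1 and 2, or 3 and 4, 7 and 6 fell. These were 20.8%, 29.2% and 25% of those tested, beside 13.2%, 17.3% and 18.3% of all genes. The retrograde transport subunit Ift122 fell by 0.47 (adjusted p = 0.00323), the transition zone protein Tctn1 by 0.62 (adjusted p = 0.00558), and Tulp3, which carries receptors into cilia, by 0.56 (adjusted p = 0.00660). The anterograde subunits Ift22, Ift172 and Ift46 fell by 0.56, 0.46 and 0.39 (adjusted p = 0.00945, 0.00951 and 0.0110). The motor subunits Kif3a and Dync2li1 fell by 0.30 and 0.26 (adjusted p = 0.0471 and 0.0499). Ift140 (-0.50, adjusted p = 0.0551) and Ift43 (-0.28, adjusted p = 0.0702) did not pass. Motile cilia use the same transport genes. Of 17 tested markers of motile ciliated cells 13 fell, 76.5%. That count was 6 without deficient lung 1 or 3, 7 without deficient lung 2 or adequate lung 2, and 8 without adequate lung 4. It was 7 without adequate lungs 3 and 4 or with the Y-linked covariate. These counts were 35.3% to 47.1% of the 17, beside 13.2% to 18.3% of all genes in the same fits. The markers with the lowest p-values include Foxj1 (-0.84), Hydin (-1.17), Tekt1 (-0.81) and Tppp3 (-0.70). The mean level of that marker list was 7.41 to 7.66 in deficient lungs, against 7.88 to 8.48 in adequate lungs, and its part in the transport genes was not tested.

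Of 18 tested lung mesenchymal genes, of 20 listed, that respond to Hedgehog signalling in mouse lung or other tissues, 7 fell and none rose. That is 38.9% of those tested, beside 13.7% of all genes lower and 21.9% in either direction, with a median difference of -0.31. The list holds genes that Shh induces, such as Foxf1, and Fgf10, which it restrains, so this count does not measure a response in 1 direction. Without adequate lungs 1 and 2, 6 fell and 2 rose, and 5 of the 7 still passed. With the Y-linked covariate 5 fell and 3 rose, and 4 of the 7 still passed. In either fit 44.4% of the list passed, beside 17.3% and 13.2% of all genes. The genes that rose there, named after their values were seen, were the cyclin genes Ccnd1 and Ccnd2 in both fits and Mycn with the covariate. Their differences over all 8 lungs were 0.42, 0.17 and 0.13, and none of the 3 passed there. Tbx2, a T-box factor that keeps lung mesenchyme proliferating, read 10.83, 11.21, 11.06 and 10.49 in deficient lungs, against 12.29, 12.07, 12.02 and 12.29 in adequate lungs. The groups did not overlap, and Tbx2 was 2.41-fold lower (-1.27, SE 0.16, adjusted p = 0.00103). Bmp4, a secreted growth factor of the distal lung, read 9.39, 9.06, 9.25 and 9.10 in deficient lungs, against 10.22, 10.36, 10.47 and 10.50 in adequate lungs. It was 2.28-fold lower (-1.19, SE 0.11, adjusted p = 0.000199), again without overlap.

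Fgf10, the mesenchymal growth factor that draws out epithelial buds and that Shh restrains in the mouse lung, read 12.25, 12.11, 11.57 and 11.88 in deficient lungs, against 13.07, 12.84, 12.80 and 12.74 in adequate lungs. It fell by 0.91 (SE 0.15, adjusted p = 0.00402). Foxf1, a forkhead factor of lung mesenchyme that Shh induces in the mouse, read 15.91, 15.94, 15.95 and 15.72 in deficient lungs, against 16.52, 16.42, 16.43 and 16.35 in adequate lungs. It fell by 0.55 (SE 0.09, adjusted p = 0.00362), and neither gene's groups overlapped. Tbx3 (-0.66, adjusted p = 0.0143), Nr2f2 (-0.48, adjusted p = 0.00942) and Tbx4 (-0.42, adjusted p = 0.0480) also fell, while Bcl2 (-0.44, adjusted p = 0.0563) and Foxf2 (-0.26, adjusted p = 0.0597) did not pass. Bmp4, Tbx2, Foxf1 and Cdon passed without either pair of adequate lungs and with the Y-linked covariate. Fgf10 passed without either pair but not with the covariate (-0.75, adjusted p = 0.0590).

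**Figure D5:**
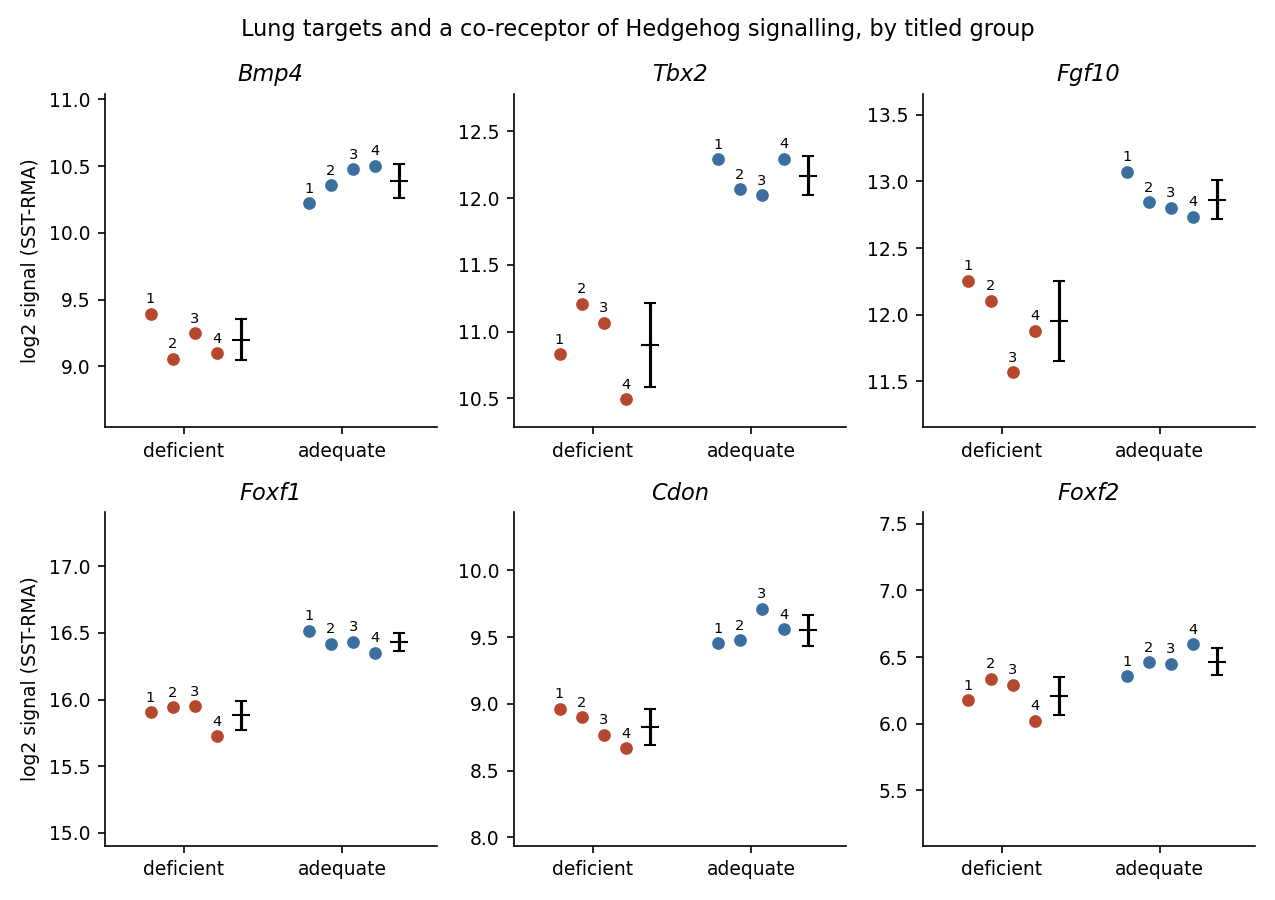
Log2 expression (vertical axes, a separate scale for each gene) of Bmp4, Tbx2, Fgf10, Foxf1, Cdon and Foxf2, deficient lungs left and adequate lungs right, 1 numbered point per lung with the group mean and SD. The deficient points lie below the adequate ones in all 6 genes, with the narrowest gap for Foxf2, which did not pass.

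Markers were counted for the epithelium, which sends the signal, and for mesenchyme and smooth muscle, which receive it. Of all genes, 13.7% passed lower in deficient lungs and 21.9% in either direction. Of 20 epithelial markers 13 fell and none rose, 65% of the list. Their mean level was 9.84 to 9.98 in deficient lungs, against 10.46 to 10.55 in adequate lungs. The 13 include Krt18 (-1.38), Foxa1 (-0.91), Nkx2-1 (-0.85) and Esrp2 (-0.81). Of the 7 that did not pass, Epcam differed by -0.13 (adjusted p = 0.474), Cdh1 by -0.17 (adjusted p = 0.284) and Elf5 by 0.47 (adjusted p = 0.0684). Epcam, Cdh1 and Elf5 were named after their values were seen. Only 9 fell without deficient lung 2, without adequate lungs 1 and 2 or with the Y-linked covariate. Without adequate lung 4, 10 fell and 1 rose. Of 21 tested mesenchymal markers 5 fell and none rose, 23.8%, beside 13.7% of all genes lower and 21.9% in either direction. Their median difference was -0.08, and their mean level was 10.69 to 10.99 in deficient and 10.94 to 11.10 in adequate lungs. The 4 with the lowest p-values, Meox2 (-1.39), Tcf21 (-0.78), Col6a1 (-0.77) and Pdgfra (-0.65), fell. Other members had values above 0 that did not pass, the highest being Dcn (0.59, adjusted p = 0.193), named after its value was seen. None of 15 smooth muscle markers passed, their median difference was 0.05, and their mean level was 10.15 to 10.54 in deficient and 10.27 to 10.45 in adequate lungs. Hhip is one of these 15, and Myocd (-0.23, adjusted p = 0.0725), a driver of the smooth muscle programme, is in this list and the target list. Of 12 tested neutrophil markers 10 fell, with mean levels of 5.94 to 6.26 in deficient and 7.86 to 8.16 in adequate lungs. All 17 tested immediate early genes fell, with mean levels of 7.72 to 8.15 in deficient and 9.34 to 10.14 in adequate lungs. Of 12 alveolar type 1 markers 3 fell and 2 rose, but only 1 or 2 in all passed without any 1 of deficient lungs 1, 2 and 3 or adequate lungs 1, 2 and 4, with mean levels of 12.32 to 12.43 in deficient and 12.51 to 12.62 in adequate lungs. Of 18 proliferation markers 1 fell and 2 rose, but none passed without deficient lung 2, 1 without deficient lung 1 or adequate lung 1 or 2, and 5 without adequate lung 3, with mean levels of 8.67 to 9.15 in deficient and 8.48 to 9.03 in adequate lungs. The part of these shifts in the Hedgehog results was not tested.

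Profiles most like those of Shh, Gli1 and Hhip over the 8 arrays were found by the root mean square distance between mean-centred log2 values, a description that carries no test. The nearest to Shh were Mrps6 (0.036), LOC102550790 (0.042) and Hycc1 (0.043). The nearest to Gli1 were Kat7 (0.048), Wdr25 (0.054) and Kbtbd4 (0.058). The nearest to Hhip were Hsc70-ps2 (0.074), LOC100911627 (0.081) and Ankrd46 (0.083).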

How the data were processed

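Each of 8 whole lungs gave 1 biotin-labelled total RNA sample and 1 single-colour array, per the labels' protocols. The deposited table holds log2 values that the authors made with Expression Console (SST-RMA, gene level), per the labels. RMA corrects background, makes array distributions alike and summarises probes. The software version is not given in the sources used here. The authors' deposited table of called transcripts holds per-sample log2 values and a signed fold, which is treated as a score, with no test of its own used. No raw scans were used, and array number limits the precision.

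Rows with exactly 1 gene symbol in the platform annotation were used, 1 row per gene (highest mean over 8 arrays). Genes with a mean under the 30th percentile (log2 5.319) were left out of the test, which leaves 15465. Differences, deficient minus adequate, came from lmFit and eBayes (with a trend) of limma 3.58.1, run in R 4.3.3. The two-sided p-values were adjusted by Benjamini-Hochberg over these genes, at a threshold of 0.05. The script was tested on simulated data. The members and gene lists were chosen with earlier results of these data known. Named genes are the 9 members, every pathway list gene that passed with up to 2 that did not (lowest p), up to 4 per cell type list (lowest p), and the 3 nearest profiles of Shh, Gli1 and Hhip. Boc, Ccnd1, Ccnd2, Mycn, Dcn, Epcam, Cdh1 and Elf5 were added after their values were seen. Same-numbered lungs of the 2 groups had correlations of their deviations of -0.171, 0.044, -0.353 and -0.28, so replicate numbers were not taken as pairs. In all, 21 alternatives were fitted. The fit of every named row was added after seeing the data.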

Additional observations from a re-analysis of the deposited data

How the results depend on the processing

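Over 21 alternatives, the differences of Sufu (-0.42 to -0.27), Gli2 (-0.85 to -0.33), Shh (-0.50 to -0.19), Smo (-0.97 to -0.21), Hhip (-0.30 to -0.06) and Gli3 (0.02 to 0.25) kept their sign. Some alternatives cannot change a difference, namely other level filters, the fit without a trend, the robust fit and the replicate block. Gli1 reversed to 0.0329 with arrays centred, 0.0369 without adequate lung 4 and 0.1559 without adequate lungs 3 and 4. The cause was not tested, and it ranged from -0.1695 to 0.0369 without 1 lung. Shh lost its call in 10 alternatives, Sufu in 2 and Gli2 in 1 (the Y-linked covariate). Smo passed in 3 and Gli1 in 1 of them. Gli3 and Hhip passed in none of the 21. With the replicate number as a block (replicate block), 1 member (Gli2) passed, 1758 genes and 16 pathway genes, against 3, 3390 and 28 without it. The replicates share only a number, and Sufu had an adjusted p of 0.0536 and Shh of 0.103 there. With the Y-linked covariate 2044 genes and 18 pathway genes passed (14 lower, 4 higher), 12 of them among the 28. Without adequate lungs 1 and 2, 5 members did not overlap between groups. Leaving out 1 lung at a time gave 2 to 4 members passing, 2178 (without deficient lung 2) to 3134 genes, 21 to 28 pathway genes, and 3 to 4 members without overlap. Of the 28 pathway genes that passed, 22 also passed after quantile normalization, 23 after cyclic loess and 20 with arrays centred, and none changed sign. Of the 3390 genes that passed in the main fit, 2819, 2997 and 2675 also passed there, and none of the 3390 changed sign. Ihh lay below the median of negative control probes on all 8 arrays and Gli1 on 7, as the array medians did on all 8. Ihh read 3.92 to 4.35, near the antigenomic background mean of 3.71 to 3.92, and Gli1 read 6.48 to 7.10, above it. This limits what these arrays can show of both genes, and of Ihh more.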
